A study of Mus musculus with 2 samples.

Results

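The genes described here encode inhibitory checkpoint receptors, their ligands and regulators of the T cell state in which they are expressed. They are Pdcd1 (PD-1), Ctla4, Lag3, Havcr2 (TIM-3), Tigit, Cd160, Tox, Entpd1 (CD39), Cd274 (PD-L1) and Pdcd1lg2 (PD-L2). They were taken by symbol from the deposited counts, where all 10 were found among 27998 genes. Their transcripts were followed through T cells, NK cells, macrophages, dendritic cells (DC) and CD45-negative cells, which were set apart by marker genes outside the list.

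The study looked at leukocytes of melanomas in hosts that lack Siah2, a RING finger ubiquitin ligase. It grew tumors of YUMMER1.7, a mouse melanoma line that carries mutant Braf and many mutations from UV light, for 11 days under the skin of 8-week-old male C57BL/6 mice. The hosts were wild type (WT) or Siah2-/-. Tumors of each group were digested together, live CD45+ leukocytes were sorted, a part of the CD45- cells was mixed back, and 1 droplet library was made per genotype with 10x Genomics 3′ chemistry. The tumor cells were the same line in both groups, so the genotype concerns the host cells alone, and neither the number of pooled tumors nor the part of Siah2 that is deleted is given in the sources used here. Genotype, tumor pool, sort and library cannot be told apart. There was no replicate and no test, and every interval below is an exact 95% interval of counting error only.

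T cells that meet antigen for a long time, as they do in tumors, keep several inhibitory receptors on their surface and lose function, a state called exhaustion. PD-1 dampens signals from the T cell receptor when it binds PD-L1 or PD-L2 on myeloid and tumor cells, and CTLA-4 competes with the costimulatory receptor CD28 for CD80 and CD86 and is kept at a high level by regulatory T cells. Interferon-gamma from T and NK cells is a well known inducer of PD-L1.

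The ligand genes are neighbours. In GRCm38, Cd274 spans chr19:29367455-29388095 and Pdcd1lg2 spans chr19:29410919-29471161, both on the plus strand, with 22823 bases between them. Entpd1 is on the same chromosome (chr19:40612366-40741602, plus strand). Ctla4 (chr1:60887000-60915832, plus strand) and Pdcd1 (chr1:94038305-94052553, minus strand) share chromosome 1. The promoters of Cd274, Pdcd1lg2 and Ctla4 are printed because the results turn on these genes. Each sequence runs 5′ to 3′ from 250 bases before to 50 bases after a start site in RefSeq (GRCm38.p6), and 8 of the 10 genes had an entry there, Lag3 and Tox being the others. Capitals mark matches on either strand to GAAANNGAA, a core of interferon-stimulated elements, and to ACGTG, the core of the hypoxia response element.
Cd274 (chr19:29367188-29367487, plus strand): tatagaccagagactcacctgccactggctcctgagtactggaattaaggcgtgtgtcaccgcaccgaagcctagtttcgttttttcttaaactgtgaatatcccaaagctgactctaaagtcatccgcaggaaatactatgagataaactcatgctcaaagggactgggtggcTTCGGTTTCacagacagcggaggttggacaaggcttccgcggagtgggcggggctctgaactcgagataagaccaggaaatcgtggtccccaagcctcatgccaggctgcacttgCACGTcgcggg
Pdcd1lg2 (chr19:29410669-29410968, plus strand): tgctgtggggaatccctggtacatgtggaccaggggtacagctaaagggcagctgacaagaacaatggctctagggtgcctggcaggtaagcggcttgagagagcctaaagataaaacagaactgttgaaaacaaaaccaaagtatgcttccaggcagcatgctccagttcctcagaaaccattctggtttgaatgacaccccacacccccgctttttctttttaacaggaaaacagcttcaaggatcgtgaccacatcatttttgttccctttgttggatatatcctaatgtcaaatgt
Ctla4 (chr1:60908775-60909074, plus strand): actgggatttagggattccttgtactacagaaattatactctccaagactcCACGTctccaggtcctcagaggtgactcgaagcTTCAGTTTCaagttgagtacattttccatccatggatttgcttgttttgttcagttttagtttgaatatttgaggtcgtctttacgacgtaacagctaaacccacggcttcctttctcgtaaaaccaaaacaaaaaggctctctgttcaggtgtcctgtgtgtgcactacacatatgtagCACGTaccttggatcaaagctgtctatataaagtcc
GAAANNGAA was found once in Cd274, from base 175 of the printed sequence, and once in Ctla4, from base 85, and in 8.56% of 32851 mouse promoters of this length. ACGTG was found in Cd274 at base 290, in Ctla4 at bases 52 and 265, once each in Havcr2 and Tigit, and in 19.6% of all promoters. TTCNNNGAA, the site bound by STAT dimers, was found in 1 promoter of Cd160 (8.30% of all promoters), and TGACTCA, an AP-1 site, in no promoter of these genes (5.20% of all promoters). Pdcd1lg2 held none of the 4 motifs in this window. A match is a description of letters and no evidence of binding.

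The cells analysed were the 4512 WT cells and the 5563 cells of the other library that the authors kept, with 64793053 and 59090284 unique molecular identifiers (UMIs, counted transcripts) and medians per cell of 11439.5 and 8700.0. No analysed cell had fewer than 6670 UMIs in WT or 4896 in the other library, and 34 cell barcodes occurred in both. Siah2 itself had 660 and 505 UMIs, or 10.2 and 8.55 CPM (a gene's UMIs in a set of cells, scaled to 1000000 UMIs of that set), a log2 ratio of −0.25 (−0.42 to −0.08). Because the deleted part is not given, these 3′ counts do not check the genotype, and the second library is therefore called the library labelled Siah2-/-. Values are given for WT first and for that library second, and a log2 ratio is that library over WT.

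Marker gates held 82.7% of WT cells and 79.6% of cells labelled Siah2-/-. CD8 T cells numbered 455 and 860, CD4 T cells without a Foxp3 UMI 17 and 302, Foxp3-positive T cells 51 and 70, NK cells 382 and 629, macrophages 2030 and 2321, DC 69 and 112, and CD45-negative cells 729 and 136. The markers fitted these names, with Ikzf2 at 784 and 924 CPM in Foxp3-positive T cells, for example, against 83.0 and 102 CPM in CD8 T cells. The CD45-negative gate asked for at least 9 UMIs of Col1a1, Col1a2, Col3a1, Dcn and Lum together and at most 1 of Ptprc. These fibroblast-type genes were thus high in it by definition, and CD45- cells with fewer of their UMIs were left out. Of 5 melanoma markers, Sox10 was at 0 UMIs in both libraries, Mlana had 1 and 0 UMIs and Dct 2 and 2 UMIs. Pmel had 7 and 3 UMIs and Mitf, which other cell types also express, 79 and 19 UMIs. Dcn, a gene of the gate, had 4908 and 1553 UMIs, and Hmga2, which the gate did not use, 4622 and 572 UMIs. The cells are called CD45-negative only. In every gate other than the T cells, the summed level of Cd3d, Cd3e and Cd3g was higher in the library labelled Siah2-/-, for example 19.7 and 56.0 CPM in macrophages. Free RNA was read from droplets with at most 100 UMIs, and transcripts of another cell type (C1qa and C1qb, or Cd8a and Cd8b1 in macrophages) put its share of a gate's UMIs at 1.80% to 4.17% for WT and at 4.42% to 7.06% for the other library.

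CD8 T cells held more transcripts of Pdcd1, Lag3, Cd160 and Tox than any other gate, and macrophages more of Entpd1, Cd274 and Havcr2. CD8 T cells held 68.3% of the Pdcd1 UMIs of WT cells, 50.4% of those of Lag3, 45.0% of those of Cd160 and 45.4% of those of Tox. Macrophages held 63.4% of the Entpd1 UMIs, 57.1% of the Cd274 UMIs and 52.0% of the Havcr2 UMIs of WT cells. Cells in no gate held 20.2% to 39.8% of a gene's UMIs for WT and 17.3% to 41.9% for the other library.

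**Figure D1:**
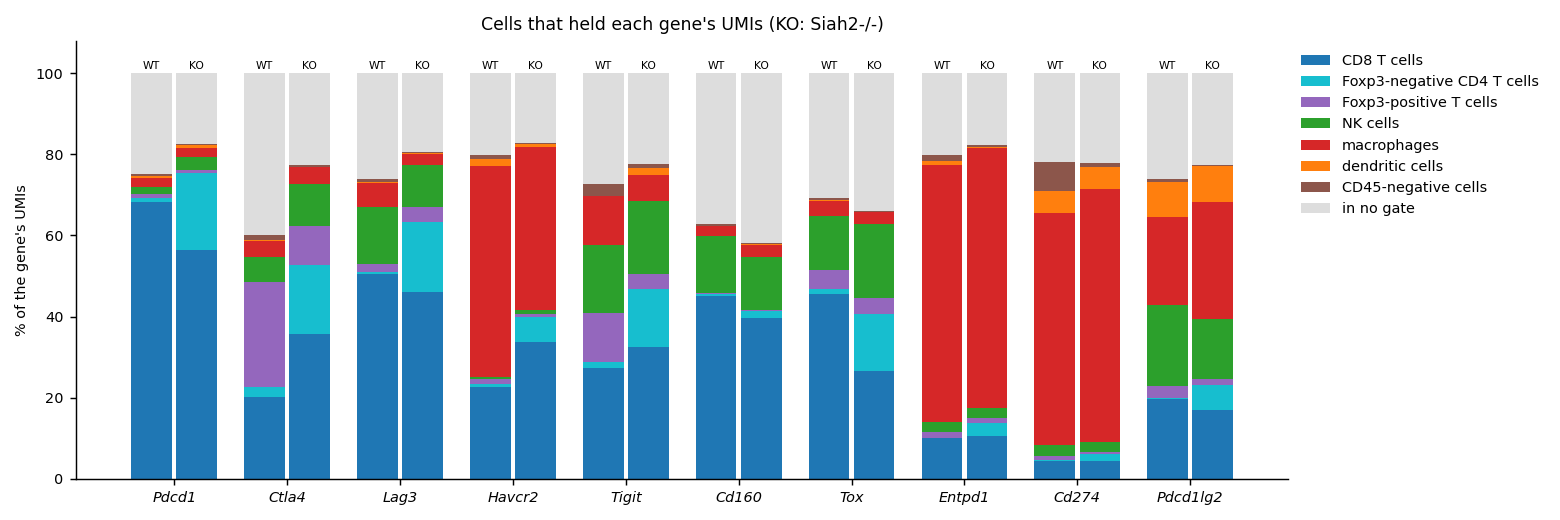
Share of each gene's UMIs (y axis, %) found in each marker gate, as stacked bars for WT and for the library labelled Siah2-/- (KO). Macrophages held 57.1% and 62.6% of the Cd274 UMIs, while CD8 T cells held 68.3% and 56.3% of the Pdcd1 UMIs.

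By CPM, Pdcd1 was highest in CD8 T cells of WT, followed by CD4 T cells without Foxp3 (163 CPM), Foxp3-positive T cells (45.2 CPM), NK cells (11.0 CPM) and DC (11.0 CPM), of which the last pair did not differ beyond counting error. In the library labelled Siah2-/- the CD4 T cells stood first, at 375 CPM, above the CD8 T cells. Ctla4 kept the same order in both libraries, from Foxp3-positive T cells over CD4 T, CD8 T and NK cells, each step beyond counting error, to macrophages, DC and CD45-negative cells, whose neighbouring intervals overlapped. Cd274 was highest in DC, followed by macrophages, in both libraries. In WT the interval of macrophages overlapped that of Foxp3-positive T cells (28.3 CPM), and in the library labelled Siah2-/- it did not (41.4 CPM).

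**Figure D2:**
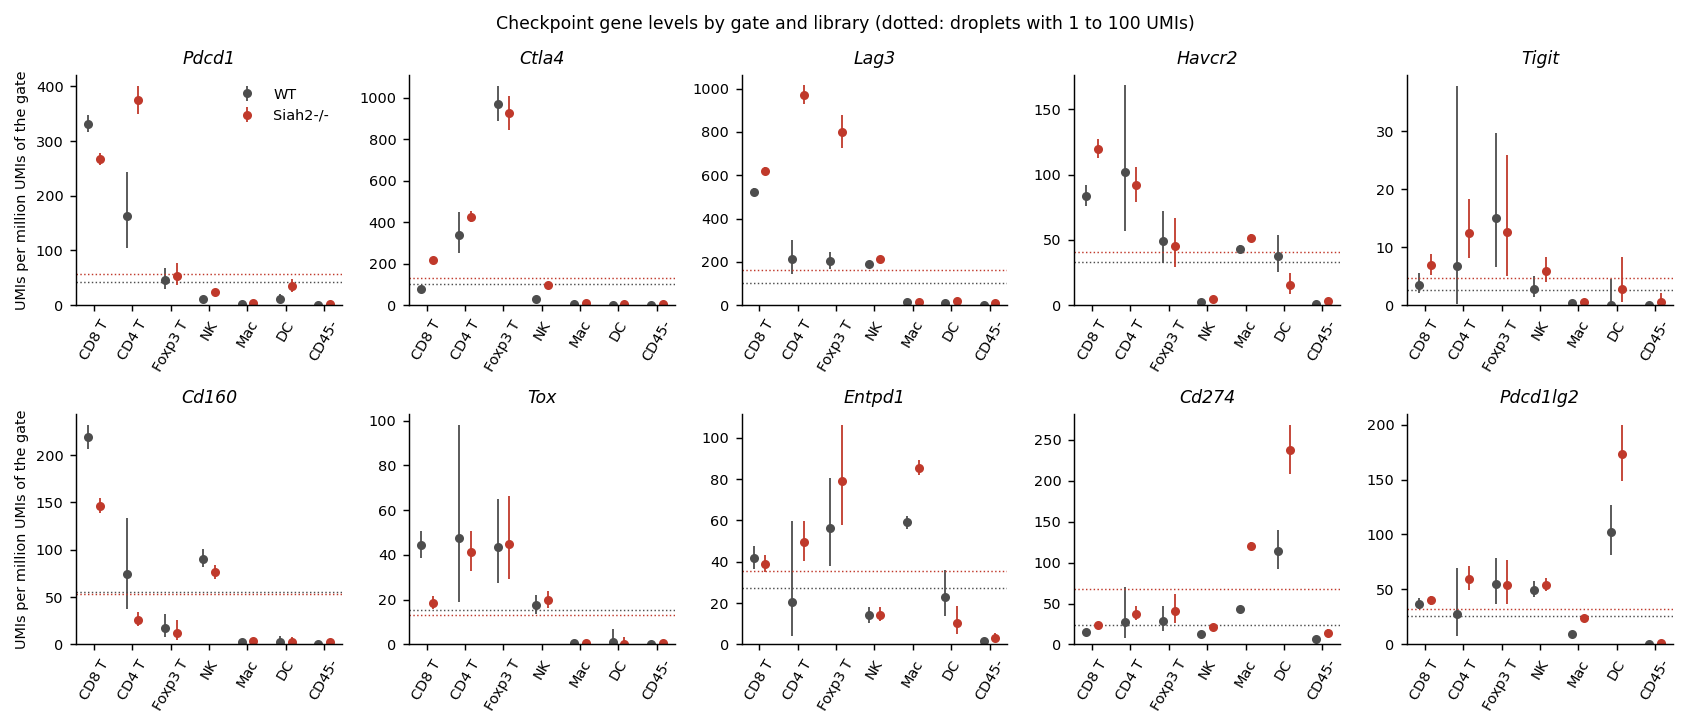
Level of each gene in each marker gate in CPM (linear scale from 0, its own for each gene), for WT and for the library labelled Siah2-/-, with exact 95% counting intervals and dotted lines at the level in free RNA of each library. Ctla4 lay near the same level in Foxp3-positive T cells of both libraries (972 and 925 CPM) and apart in CD8 T cells (78.0 and 217 CPM).

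In CD8 T cells the genes did not move together. Ctla4 had 402 UMIs in WT cells and 1891 UMIs in those labelled Siah2-/-, or 78.0 CPM (70.5 to 86.0) and 217 CPM (207 to 227), a log2 ratio of 1.48 (1.32 to 1.64). Tox, which encodes an HMG-box factor needed for the exhausted state, had 229 and 162 UMIs, or 44.4 and 18.6 CPM, a log2 ratio of −1.26 (−1.56 to −0.96). Ctla4 was thus higher and Tox lower in the library labelled Siah2-/-, each with intervals that stayed apart, and over all alternative settings the ratios ran from 1.35 to 1.56 and from −1.32 to −1.13. Free RNA held Ctla4 at 103 and 132 CPM, and with it subtracted the Ctla4 ratio in CD8 T cells was 1.53. Pdcd1 had 1712 and 2326 UMIs, or 332 and 267 CPM, a log2 ratio of −0.32 (−0.41 to −0.22). Cd160, a receptor of the ligand HVEM, had 1129 and 1276 UMIs, or 219 and 146 CPM, a log2 ratio of −0.58 (−0.70 to −0.46). Both were lower by more than counting error and short of 1.5-fold, the fold used here to call a difference, although Cd160 passed it in 5 of the alternative settings (−0.59 to −0.62).

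The other receptors were at or above their WT values. Lag3, whose product binds MHC class II, had 522 and 619 CPM in CD8 T cells, a log2 ratio of 0.25 (0.18 to 0.31). Havcr2 had 83.8 and 120.1 CPM (0.52, 0.36 to 0.68; past 1.5-fold in 2 alternative settings, at 0.60 and 0.63), and Tigit, which binds the poliovirus receptor, had 18 and 60 UMIs (0.98, 0.20 to 1.83). For Lag3 the share of thinned cells with a UMI, 77.1% and 69.7% (87.9% and 78.6% without thinning), went against its level, so no order is read from that share. Entpd1, an ectoenzyme that degrades extracellular ATP, was at 41.9 and 39.1 CPM (−0.10, −0.35 to 0.15) and Pdcd1lg2 at 37.0 and 40.0 CPM (0.11, −0.15 to 0.37), both within counting error. Cd274 had 14.9 and 23.5 CPM (0.66, 0.27 to 1.05), and its value lay under 1.5-fold in 5 alternative settings (0.48 to 0.54).

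Of the 10 genes, 3 were past 1.5-fold higher (Ctla4, Tigit and Cd274) and 1 lower (Tox) in CD8 T cells, against 10.7% and 9.02% of all 10227 genes with at least 20 UMIs there. Their median log2 ratio was 0.18, beside −0.05 over all these genes. Of the markers of other cells in this gate, the summed NK cell markers had 255 and 226 CPM, the 7 macrophage markers 164 and 189 CPM, and the 3 neutrophil markers, all higher in the library labelled Siah2-/-, 2.52 and 56.1 CPM. Ly6c2, Chil3, Vcan and Ccr2, of which CD8 T cells express Ly6c2 and Ccr2 themselves, summed to 2131 and 3069 CPM. Their part in the ratios was not tested, and Foxp3 was at 0 in this gate by its definition.

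Shares of cells with a UMI were compared as well. With each cell thinned to 4500 UMIs, which every analysed cell reached, a Ctla4 UMI was seen in 26.4% of WT and 48.7% of CD8 T cells labelled Siah2-/- (45.7% and 67.4% without thinning). The Pdcd1 share was 64.2% and 49.0% (77.8% and 61.2% without thinning), the Cd160 share 51.6% and 36.3% (71.9% and 52.8%), and the Tox share 16.7% and 8.14% (29.9% and 13.7%). In CD45-negative cells, which are not lymphocytes, a Ctla4 UMI was seen in 0.686% and 2.21% of thinned cells (3.84% and 13.97% without thinning) and a Cd160 UMI in 0.274% and 0.735%. Without thinning, a Pdcd1 UMI was seen in 1.37% and 6.62% of them, at median depths of 23352 and 26445.5 UMIs against 9717 and 8388.5 in CD8 T cells.

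**Figure D3:**
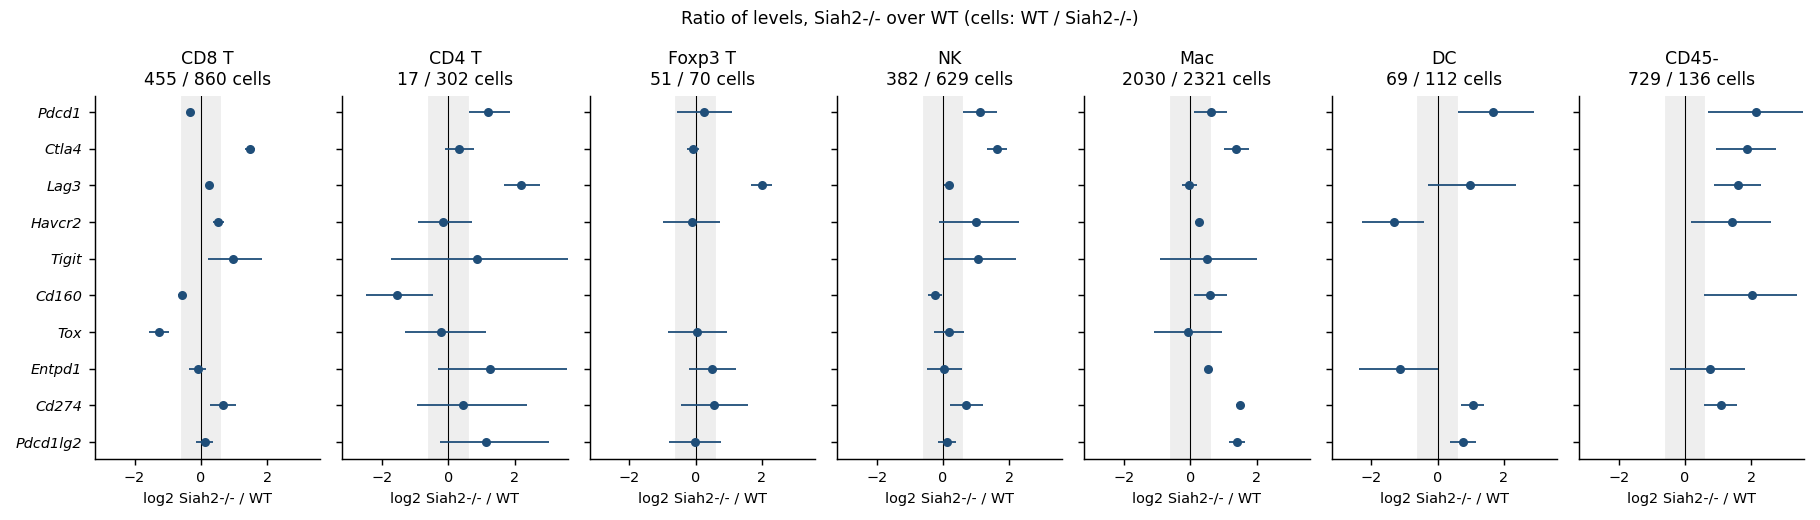
Log2 ratio of each gene, the library labelled Siah2-/- over WT (x axis), in each marker gate, with exact 95% counting intervals cut off at the edge of the axis, a grey band within 1.5-fold, and genes under 20 UMIs left out. In CD8 T cells Ctla4 lay at 1.48 and Tox at −1.26, while in macrophages Cd274 lay at 1.49 and Pdcd1lg2 at 1.41.

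The share of cycling cells, counted without thinning, differed between the CD8 T cells of the libraries. At least 2 UMIs of Mki67 and Top2a, genes of proliferating cells, were seen in 206 of 455 WT cells (45.3%, 40.6 to 50.0) and in 166 of 860 cells labelled Siah2-/- (19.3%, 16.7 to 22.1). Cells without a UMI of either numbered 195 and 597. The Ctla4 ratio was 1.87 (1.64 to 2.11) in cycling cells, from 67.5 to 247 CPM, and 1.14 (0.90 to 1.39) in cells without cycling genes, from 91.0 to 201 CPM. Tox gave −1.26 (−1.73 to −0.80) and −1.06 (−1.54 to −0.58), so both genes differed within each state. Pdcd1 was at 321 and 302 CPM in cycling cells (−0.09, −0.23 to 0.05), within counting error, and at 324 and 249 CPM in the others (−0.38, −0.52 to −0.23). The reverse held for Lag3, which was at 432 and 574 CPM (0.41, 0.30 to 0.52) in cycling cells and at 0.03 (−0.07 to 0.13) in the others. Weighting the CD8 T cells labelled Siah2-/- to the WT share of cycling cells left each of the 10 ratios within its counting interval.

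The receptors were also counted per cell. Of 6 inhibitory receptors on the T cell surface (Pdcd1, Ctla4, Lag3, Havcr2, Tigit and Cd160), 3 or more were seen in 51.0% (46.3 to 55.7) of thinned WT CD8 T cells and in 50.5% (47.1 to 53.9) of those labelled Siah2-/-. The difference was −0.52 percentage points (−6.18 to 5.14), within counting error. Without thinning, at unequal depth, the shares were 77.4% and 70.6%, a difference of −6.78 points (−11.56 to −1.76). No receptor was seen in 6.15% (4.13 to 8.77) and 8.84% (7.03 to 10.9) of thinned cells. A single receptor was seen in 13.8% and 18.0% of thinned cells, 2 in 29.0% and 22.7%, and 4 or more in 18.2% and 21.3%. The mean number per thinned cell was 2.46 and 2.41, while the shares of cells with Ctla4, Pdcd1 and Cd160 differed.

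**Figure D4:**
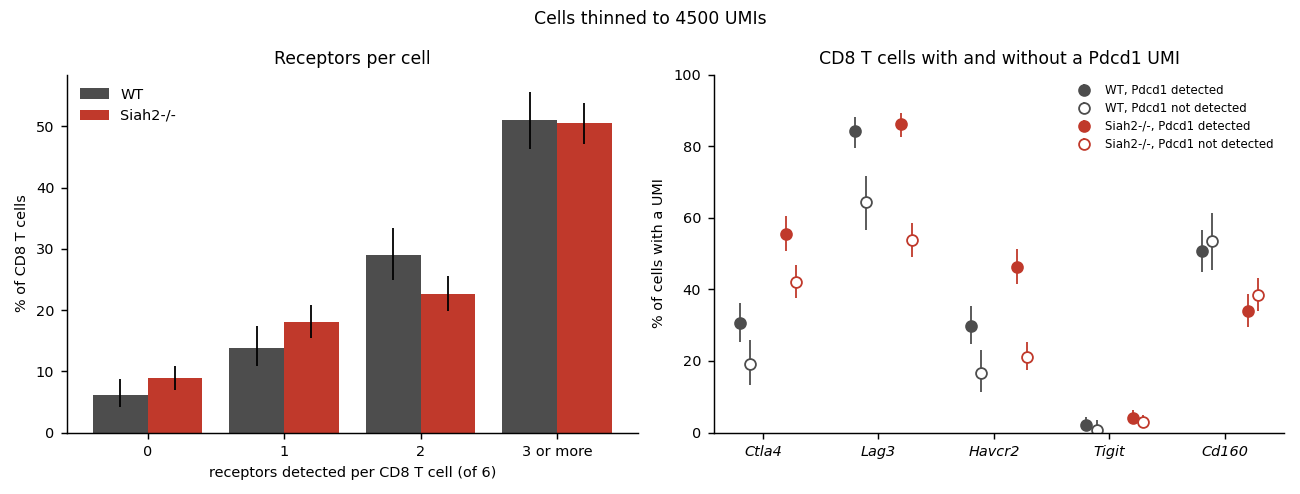
Left, share of CD8 T cells (y axis, %) by the number of 6 inhibitory receptor genes seen in the cell after thinning to 4500 UMIs, with exact 95% binomial intervals, for WT and for the library labelled Siah2-/-. Cells with 3 or more made up 51.0% and 50.5%. Right, share of CD8 T cells (y axis, %) with a UMI of each other receptor, among cells with (filled) and without (open) a Pdcd1 UMI, with Ctla4 at 30.5% and 55.6% in the filled points.

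Among thinned CD8 T cells with a Pdcd1 UMI, 292 of WT and 421 labelled Siah2-/-, a Ctla4 UMI was seen in 30.5% (25.3 to 36.1) and 55.6% (50.7 to 60.4). Havcr2 was seen in 29.8% (24.6 to 35.4) and 46.3% (41.5 to 51.2) of them, and Lag3 in 84.2% and 86.2%. Cd160 was seen in 50.7% (44.8 to 56.6) and 34.0% (29.5 to 38.7). In CD8 T cells without a Pdcd1 UMI, Ctla4 was again seen more often in the library labelled Siah2-/- (19.0% and 42.1%) and Cd160 less often (53.4% and 38.5%), while Havcr2 was at 16.6% (11.2 to 23.2) and 21.2% (17.5 to 25.3), with intervals that overlapped.

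In Foxp3-positive T cells Ctla4 differed by less than counting error. It had 516 and 514 UMIs, or 972 CPM (890.3 to 1060.1) and 925 CPM (847 to 1009), a log2 ratio of −0.07 (−0.25 to 0.11). Lag3 had 107 and 444 UMIs there, or 202 and 799 CPM, a log2 ratio of 1.99 (1.68 to 2.31), which became 1.04 when all barcodes with at least 1000 UMIs were gated. That set held 331 and 190 Foxp3-positive T cells in place of 51 and 70. Of the 8 genes with at least 20 UMIs in this gate, Lag3 alone was past 1.5-fold, against 16.6% of 5324 genes higher and 17.8% lower, and their median was 0.16 beside −0.03 over all genes. NK cell markers in this gate summed to 37.7 and 171 CPM, all 3 being higher in the library labelled Siah2-/-. The macrophage markers (126 and 245 CPM, 5 of 7 higher), the neutrophil markers (5.65 and 88.2 CPM, 3 of 3), Foxp3 itself (249 and 427 CPM) and Cd4 (69.7 and 227 CPM) were higher too, and their part in the Lag3 ratio was not tested. Entpd1, which marks regulatory T cells as well as exhausted ones, was at 56.5 and 79.2 CPM (0.49, −0.22 to 1.21), and Pdcd1 was at 45.2 and 54.0 CPM (0.26, −0.57 to 1.09). Havcr2 (−0.12), Tox (0.05), Cd274 (0.55) and Pdcd1lg2 (−0.02) were also within counting error, although Cd274 passed 1.5-fold in 2 alternative settings (0.59 and 0.76) and Pdcd1lg2 in 1 (−0.63), and Tigit (8 and 7 UMIs) and Cd160 (9 and 7 UMIs) were under 20 UMIs.

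CD4 T cells without Foxp3 were few in WT, and every WT value in them rests on 17 cells and 146907 UMIs. Lag3 had 31 UMIs in these and 2027 UMIs in 302 cells labelled Siah2-/-, or 211 CPM (143 to 299.5) and 971 CPM (929 to 1014), a log2 ratio of 2.20 (1.69 to 2.76). One cell carried 38.7% of these WT UMIs, without the top cell of each library the ratio was 2.80, and among barcodes with at least 1000 UMIs, 241 and 664 cells, it was 1.57. Pdcd1 had 24 and 782 UMIs, or 163 and 375 CPM (1.20, 0.61 to 1.85), and Cd160 had 11 and 54 UMIs, or 74.9 and 25.9 CPM (−1.53, −2.49 to −0.45; −0.73 among barcodes with at least 1000 UMIs). Pdcd1 and Lag3 were thus higher and Cd160 lower in the library labelled Siah2-/-. Other markers moved in this gate as well, with 5 of 7 macrophage markers higher (sums of 81.7 and 201.7 CPM; Mrc1 at 0 in both), neutrophil markers at 6.81 and 29.2 CPM, and NK cell markers at 136 and 113 CPM. Cd4 was at 299.5 and 607 CPM, Ikzf2 at 170.2 and 70.9 CPM and Ly6c2 at 1035 and 594 CPM, and the part of these in the ratios was not tested. Ctla4 was at 340.4 and 427 CPM (0.33, −0.08 to 0.77), within counting error, and at 0.59, past 1.5-fold, among barcodes with at least 1000 UMIs. The higher values of Entpd1 (1.27, −0.31 to 3.57), Pdcd1lg2 (1.14, −0.26 to 3.04) and Tigit (0.87, −1.73 to 6.23) rest on 3, 4 and 1 WT UMIs and lay within counting error, and among barcodes with at least 1000 UMIs those of Entpd1 and Pdcd1lg2 were 0.07 and 0.01. Havcr2 was at −0.15 (1.04 among those barcodes), Tox at −0.21 (−0.72 when gated on thinned cells) and Cd274 at 0.46 (1.23 without the top cell, 0.89 as a mean over cells), within counting error as well. Of the 10 genes, 5 were past 1.5-fold higher and 1 lower, against 20.7% and 18.5% of 7059 genes in this sparse gate, and their median was 0.66 beside 0.00 over all genes.

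NK cells carried Lag3, Cd160 and Ctla4 transcripts. Ctla4 had 122 and 541 UMIs in them, or 31.2 and 96.6 CPM, a log2 ratio of 1.63 (1.34 to 1.92), and was seen in 14.1% and 30.5% of thinned cells (24.6% and 44.2% without thinning). Lag3 was at 190.0 and 215 CPM (0.18, 0.04 to 0.31) and Cd160 at 90.7 and 76.2 CPM (−0.25, −0.46 to −0.04). Only Ctla4 of these was past 1.5-fold. Pdcd1 had 43 and 133 UMIs, or 11.0 and 23.7 CPM (1.11, 0.60 to 1.64), with 27.9% and 12.8% of these UMIs in a single cell each. T cell transcripts in this gate moved the same way, the 3 CD3 genes summing to 30.2 and 68.5 CPM, as did all 7 macrophage markers (114 and 181 CPM) and all 3 neutrophil markers (2.30 and 15.9 CPM), and their part in the ratios of this gate was not tested. Cd274 was at 12.8 and 20.7 CPM (0.69, 0.20 to 1.20; 0.56 with free RNA subtracted), Tigit had 11 and 33 UMIs (1.06, 0.04 to 2.20; 0.37 among barcodes with at least 1000 UMIs) and Havcr2 had 9 and 26 UMIs (1.01, −0.13 to 2.29; 0.37 when gated on thinned cells). Tox (0.19), Entpd1 (0.04) and Pdcd1lg2 (0.12) were within counting error. Of the 10 genes, 5 were past 1.5-fold higher and 0 lower in NK cells, against 12.8% and 4.76% of 9628 genes, and their median was 0.44 beside 0.07 over all genes.

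The PD-1 ligands were higher in the myeloid cells of the library labelled Siah2-/-. In macrophages Cd274 had 997 UMIs in WT cells and 2947 UMIs in those labelled Siah2-/-, or 43.0 CPM (40.4 to 45.8) and 121 CPM (116 to 125), a log2 ratio of 1.49 (1.38 to 1.59). Pdcd1lg2 had 211 and 591 UMIs, or 9.11 and 24.2 CPM, a log2 ratio of 1.41 (1.18 to 1.64). The intervals of both stayed apart, and a Cd274 UMI was seen in 17.8% and 37.2% of thinned macrophages (32.3% and 57.8% without thinning). Free RNA held Cd274 at 24.2 and 68.2 CPM, below the macrophages of each library, and after its subtraction macrophages had 43.5 and 123 CPM. The ratio ran from 1.41 to 1.53 over all alternative settings. Entpd1 was at 59.0 and 85.5 CPM (0.53, 0.44 to 0.63) and Havcr2 at 43.1 and 51.3 CPM (0.25, 0.13 to 0.37), beyond counting error and short of 1.5-fold.

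Macrophages were split by 4 monocyte genes, Ly6c2, Chil3, Vcan and Ccr2. In the 1003 and 1186 cells with at least 10 UMIs of these, Cd274 was at 44.2 and 114 CPM (1.37, 1.22 to 1.52). In the 506 and 380 cells with at most 2 UMIs it was at 35.7 and 132 CPM (1.88, 1.65 to 2.11). Cd274 was thus higher in both kinds. Pdcd1lg2 was at 8.27 and 17.1 CPM (1.04, 0.68 to 1.42) in the first and at 6.09 and 34.5 CPM (2.50, 1.97 to 3.06) in the second, whereas the Entpd1 ratios were 0.50 (0.36 to 0.65) and 0.42 (0.21 to 0.63). The macrophage markers themselves were not level, since 6 of 7 were lower in the library labelled Siah2-/-, with sums of 14296 and 10091 CPM. All 3 neutrophil markers were higher in this gate (sums of 56.9 and 130.9 CPM), with S100a8 at 355 and 1528 UMIs. The part of these cells and of the mix of macrophages in the ratios was not tested.

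Transcripts of Pdcd1, Ctla4 and Cd160 were few in macrophages, and they were higher in the library labelled Siah2-/-, as were T cell transcripts. Pdcd1 had 2.46 and 3.77 CPM (0.61, 0.12 to 1.12), Ctla4 3.41 and 8.89 CPM (1.38, 1.00 to 1.77) and Cd160 2.59 and 3.93 CPM (0.60, 0.12 to 1.09), beside 19.7 and 56.0 CPM of the 3 CD3 genes. With free RNA subtracted the Pdcd1 ratio was −0.13, and with macrophages gated on thinned cells the Ctla4 ratio was −0.05, whereas with free RNA subtracted it was 1.98, from 0.802 and 3.17 CPM, and the Cd160 ratio lay between 0.22 and 0.58 in 4 alternative settings. Lag3 was at −0.04 (−0.82 with free RNA subtracted), Tox at −0.08 (−1.23) and Tigit at 0.51 from 8 and 12 UMIs. Tigit passed 1.5-fold with lineage thresholds higher by 1 UMI (0.71) and when gated on thinned cells (0.60). Pdcd1, Ctla4, Cd160, Cd274 and Pdcd1lg2, 5 of the 10 genes, were past 1.5-fold higher and 0 lower, against 10.3% and 8.4% of 11879 genes. The median of the 10 genes in macrophages was 0.57 beside −0.04 over all genes.

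DC had the highest levels of both ligands. Cd274 had 94 and 250 UMIs in 69 and 112 cells, or 115 CPM (92.6 to 140.3) and 237 CPM (209 to 269), a log2 ratio of 1.05 (0.70 to 1.41). Pdcd1lg2 had 84 and 182 UMIs, or 102 CPM (81.7 to 127) and 173 CPM (149 to 199.8), a log2 ratio of 0.75 (0.37 to 1.14). Among barcodes with at least 1000 UMIs, 139 and 123 DC, the ratios were 0.69 and 0.29, so that the second was no longer past 1.5-fold, and gating on thinned cells left it at 0.48.

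Both ligands lay in DC with Ccr7, a receptor of mature, migrating DC. In the 38 WT and 72 labelled Siah2-/- DC with at least 5 Ccr7 UMIs, Cd274 was at 228 and 366 CPM (0.69, 0.33 to 1.05), and in the 31 and 40 DC without a Ccr7 UMI it was at 11.7 and 18.0 CPM (0.62, −1.25 to 2.62). Pdcd1lg2 was at 184 and 268 CPM (0.54, 0.14 to 0.96) with Ccr7 and at 28.0 and 10.3 CPM without it, from 12 and 4 UMIs. The Cd274 ratio was thus 0.69 within Ccr7-positive DC beside 1.05 in DC as a whole, with intervals that overlapped, and the difference was not tested.

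**Figure D5:**
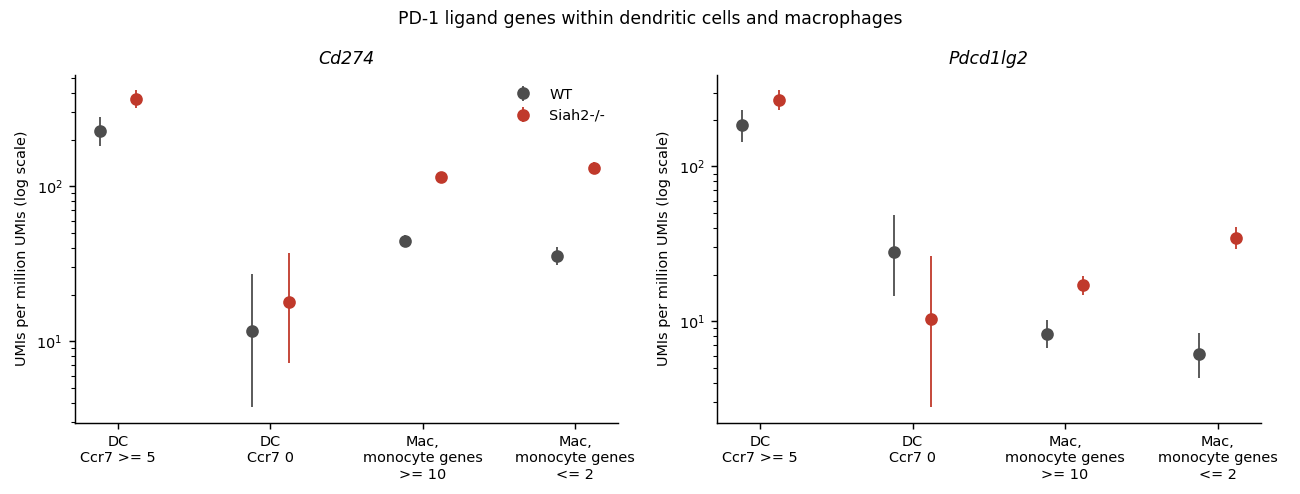
Level of Cd274 (left) and Pdcd1lg2 (right) in CPM (log scale) in DC with at least 5 Ccr7 UMIs or none and in macrophages with at least 10 or at most 2 UMIs of 4 monocyte genes, with exact 95% counting intervals. Cd274 was at 228 and 366 CPM in Ccr7-positive DC and at 11.7 and 18.0 CPM in Ccr7-negative DC.

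Other members in DC rest on few UMIs. Pdcd1 had 9 and 37 UMIs, or 11.0 and 35.1 CPM (1.68, 0.60 to 2.91; 0.67 among barcodes with at least 1000 UMIs), nearly all in Ccr7-positive DC, where it was at 23.0 and 52.7 CPM. Without Ccr7 there were 0 UMIs in WT, where the floor of 3 UMIs used for a count of 0 is 6.99 CPM, and 2 in the library labelled Siah2-/-. Havcr2, a receptor that DC are known to carry, had 31 and 16 UMIs, or 37.8 and 15.2 CPM (−1.32, −2.28 to −0.40), and Entpd1 had 19 and 11 UMIs, or 23.2 and 10.4 CPM (−1.15, −2.37 to −0.01). Most UMIs of these lay in Ccr7-negative DC, where Havcr2 was at 53.6 and 33.4 CPM (−0.68, −1.79 to 0.36) and Entpd1 at 42.0 and 25.7 CPM (−0.71, −1.99 to 0.48), both within counting error. Lag3 had 8 and 20 UMIs (0.96, −0.28 to 2.35; 0.40 among barcodes with at least 1000 UMIs). Ctla4 (2 and 7), Tigit (0 and 3), Cd160 (2 and 3) and Tox (1 and 0) were under 20 UMIs. Of the 6 genes with at least 20 UMIs in DC, 4 were past 1.5-fold higher and 2 lower, against 16.7% and 12.1% of 6404 genes, with a median of 0.86 beside 0.02 over all genes. Markers of NK cells (30.5 and 113 CPM), of CD3 (17.1 and 47.5 CPM) and of monocyte-like cells (128 and 404 CPM), and the plasmacytoid DC gene Siglech (2 and 28 UMIs), were higher in DC of the library labelled Siah2-/-, and their part was not tested.

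In CD45-negative cells Cd274 was the member with the most UMIs. It had 127 and 50 UMIs in 729 and 136 cells, or 6.80 CPM (5.67 to 8.09) and 14.4 CPM (10.7 to 19.0), a log2 ratio of 1.08 (0.58 to 1.56), and after subtraction of free RNA it was at 6.34 and 11.6 CPM. Pdcd1, Ctla4, Lag3 and Cd160 were at or under the level of free RNA. For Pdcd1, 11 and 9 UMIs were seen where free RNA alone gave an estimated 19.8 and 9.79, for Ctla4 28 and 19 where it gave 49.0 and 22.8, for Lag3 48 and 27 where it gave 49.0 and 28.2, and for Cd160 12 and 9 where it gave 26.5 and 9.15. Havcr2 (20 and 10 UMIs, free RNA 15.8 and 7.04) and Entpd1 (32 and 10 UMIs, free RNA 13.1 and 6.11) had more UMIs than the estimate, by less than counting error but for Entpd1 in WT. Tigit (2 and 2), Tox (3 and 2) and Pdcd1lg2 (7 and 5) were under 20 UMIs. All 7 genes with at least 20 UMIs were past 1.5-fold higher and 0 lower, against 11.4% and 10.5% of 11712 genes, and their median was 1.60 beside 0.00 over all genes. Ptprc, which encodes CD45 itself, moved the same way from 3.64 to 9.21 CPM, as did the CD3 genes from 14.5 to 46.6 CPM. All 7 macrophage markers (104 to 186 CPM) and all 3 NK cell markers (4.34 to 14.7 CPM) did so too. The part of other cells in the ratios was not tested. With free RNA subtracted, Pdcd1, Ctla4, Lag3 and Cd160 had negative levels in both libraries, so no ratio was left for them. When cells were gated after thinning, the ratios of Pdcd1, Cd160, Lag3 and Ctla4 were 0.38, 0.52, 0.86 and 1.24. Entpd1 was at 0.75 (−0.44 to 1.81), within counting error, and at 0.18 with free RNA subtracted, 0.47 as a mean over cells and 0.53 without the top cell, all short of 1.5-fold.

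Over all analysed cells each of the 10 genes was higher in the library labelled Siah2-/-, from a log2 ratio of 0.41 (0.24 to 0.59) for Tox to 1.61 (1.20 to 2.04) for Tigit. Pdcd1 was at 0.85, Cd160 at 0.49 and Tox at 0.41 over all cells, although each was lower in CD8 T cells. The mix of analysed cells differed too: CD8 T cells made up 10.1% and 15.5% of cells, NK cells 8.47% and 11.3%, and CD45-negative cells 16.2% and 2.44%. The pooled values therefore do not describe a cell type. The mix depends on which cells were kept, with lowest UMI counts of 6670 and 4896. Among the 10074 and 9530 barcodes with at least 1000 UMIs, CD8 T cells numbered 1071 and 1111, NK cells 1105 and 1169, and CD45-negative cells 835 and 205. The CD45-negative share also depends on how many CD45- cells were mixed back, for which the sources differ.

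Other genes of the checkpoint pathway were taken as lists, and their counts stand beside the shares of all genes past 1.5-fold in the same gate. Of 8 other inhibitory receptors, CD8 T cells had 2 past 1.5-fold higher, Vsir (62.6 and 120.3 CPM, 0.94) and Lair1 (0.70), and 2 lower, Cd200r1 (−0.90) and the SLAM family receptor Cd244 (65.9 and 43.4 CPM, −0.60), against 10.7% and 9.02% of all genes. Free RNA held Vsir at 122 and 186 CPM and Lair1 at 101 and 113 CPM, above their levels in CD8 T cells. In NK cells 0 were higher and 1 of 6 lower, Klrg1, a receptor for cadherins (79.6 and 45.2 CPM, −0.82), against 12.8% and 4.76% of all genes. In Foxp3-positive T cells 4 of 5 were higher, Cd5 (0.64), Vsir (0.75), Cd96 (1.26, −0.19 to 2.91) and Cd200r1 (0.60, −0.52 to 1.77), and Klrg1 was lower (547 and 328 CPM, −0.74), against 16.6% and 17.8% of all genes. The intervals of Cd96 and Cd200r1 included 0. CD4 T cells had 2 of 8 higher and 2 lower (20.7% and 18.5% of all genes), macrophages 2 of 8 and 1 (10.3% and 8.4%), DC 2 of 5 and 0 (16.7% and 12.1%), and CD45-negative cells 4 of 4 and 0 (11.4% and 10.5%). These shares hold for each list that follows.

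Of the ligands of these receptors, 13 were in the table. In macrophages 5 of 11 with at least 20 UMIs were higher and 0 lower, against 10.3% and 8.4% of all genes, among them the CTLA-4 ligand gene Cd80 (6.86 and 16.6 CPM, 1.27), the TIM-3 ligand gene Ceacam1 (2.42 and 5.77 CPM, 1.26) and Tnfrsf14, which encodes HVEM (1.17 and 2.21 CPM, 0.92). In DC 3 of 7 were higher and 0 lower, against 16.7% and 12.1%, Cd80 (35.4 and 75.0 CPM, 1.08), Cd200 (244 and 643 CPM, 1.40) and the TIGIT ligand gene Pvr (28.0 and 47.5 CPM, 0.76). CD8 T cells had 0 of 7 higher and 1 lower, Cd200 (31.2 and 19.2 CPM, −0.70). In the other gates 1 of 6 was higher and 1 lower in CD4 T cells, 1 of 6 and 1 in Foxp3-positive T cells, 1 of 5 and 0 in NK cells, and 2 of 9 and 0 in CD45-negative cells.

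Regulators of exhaustion other than Tox had 3 of 12 higher and 0 lower in CD8 T cells, against 10.7% and 9.02% of all genes. These were Nr4a1 (25.8 and 56.7 CPM, 1.14) and Nr4a3 (8.73 and 13.3 CPM, 0.61), which are induced by T cell receptor signals, and Tcf7 (16.5 and 28.2 CPM, 0.78), a factor of memory and stem-like T cells. Nr4a genes were past 1.5-fold higher in NK cells, macrophages and DC too, Nr4a1 at 1.57, 1.08 and 1.22, and free RNA held Nr4a1 at 65.5 and 128 CPM. The list had 4 of 11 higher and 0 lower in NK cells, 6 of 12 and 1 in macrophages, 4 of 9 and 0 in DC, 6 of 11 and 1 in CD4 T cells, 1 of 6 and 0 in Foxp3-positive T cells, and 3 of 9 and 0 in CD45-negative cells.

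Genes of interferon-gamma signalling were compared because this cytokine acts upstream of PD-L1. Irf1, a factor it induces, was at 109.6 and 177 CPM in macrophages (0.69), at 217 and 357 CPM in DC (0.72) and at 63.0 and 97.9 CPM in CD8 T cells (0.64), with free RNA at 120.2 and 191 CPM. Ifng was at 82.7 and 151 CPM in NK cells (0.87, 0.68 to 1.06), beside 88.9 and 191 CPM in free RNA, and Ifngr1, a receptor chain, was at 458 and 762 CPM there (0.74). The list had 1 of 7 higher and 1 lower in CD8 T cells, 3 of 7 and 0 in NK cells, 2 of 7 and 0 in macrophages, 2 of 6 and 0 in DC, 2 of 6 and 0 each in CD4 T and Foxp3-positive T cells, and 2 of 7 and 0 in CD45-negative cells. Of the adenosine pathway beside Entpd1 (Nt5e, Adora2a and Ada), the receptor gene Adora2a was higher in DC (31.7 and 94.0 CPM, 1.57), NK cells (21.3 and 39.6 CPM, 0.90) and macrophages (2.24 and 4.34 CPM, 0.95, below free RNA at 18.6 and 22.0 CPM), and the deaminase gene Ada lower in macrophages (15.6 and 8.35 CPM, −0.90). That list had 1 of 3 higher and 1 lower in macrophages, 1 of 3 and 0 in NK cells, 1 of 1 and 0 in DC, 0 of 3 genes called in CD8 T cells, 1 of 2 higher and 1 lower in CD4 T cells, 0 of 2 and 1 in Foxp3-positive T cells, and 0 of 1 in CD45-negative cells.

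The genes whose levels most resembled those of a member were found over 14 profiles, 7 gates in each library, among 9243 genes. Pearson's r of log2(CPM + 1) was highest with Klk8 (0.94), Cd226 (0.94) and Fam107b (0.92) for Pdcd1, with Cd2 (0.98), Icos (0.98) and Elf1 (0.97) for Ctla4, and with Nfkbie (0.95), Fam49a (0.94) and Synj1 (0.94) for Cd274. The profiles of a library share its cells and depth, and those of 1 gate its markers, so these values are a description.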

How the data were processed

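Single-cell RNA-seq of tumor leukocytes was made with 10x Genomics 3′ chemistry, as 1 library each of WT and Siah2-/- hosts. Per the labels, the authors ran bcl2fastq and Cell Ranger against mm10, and deposited raw UMI counts of 27998 genes over 737280 barcodes. They removed cells at the extremes of gene number and of high mitochondrial share, and their raw table kept 4524 and 5576 cells, of which 4512 and 5563 were in their normalized table and were analysed. The deposited normalized values are the natural log of 1 plus UMIs per 10000, and were used only to choose these cells.

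Cells were gated on summed UMIs of marker genes. Thresholds were set after marker distributions were seen, and the genes described and all lists were chosen with earlier results of these data known. The names given from the lists are some of the genes past 1.5-fold, while the counts cover all of them, and motifs were chosen after several others were looked at. UMIs were summed per gate and library, giving CPM with exact Poisson intervals, conditional exact intervals of the ratio and Clopper-Pearson intervals of shares. Genes with at least 20 UMIs over both libraries were compared at 1.5-fold. UMIs were thinned to 4500 per cell for shares. Free RNA came from droplets of 1 to 100 UMIs. Scrublet marked 0.244% and 0.036% of cells as doublets and so did not work, and doublets were not removed. The ratio and interval calculations were tested on simulated data. Python 3.11.15, numpy 2.4.6, pandas 2.3.3, scipy 1.17.1, scanpy 1.11.5 and matplotlib 3.10.9 were used.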

Additional observations from a re-analysis of the deposited data

Results flagged for a closer look

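Some genes had ratios of opposite sign in different cells, and the difference between the cells was not tested. Havcr2 was lower in DC of the library labelled Siah2-/- (log2 ratio −1.32) and higher in CD45-negative cells (1.43), from 31 and 16 UMIs and from 20 and 10 UMIs. Free RNA alone gave an estimated 15.8 and 7.04 of the UMIs in the CD45-negative cells.

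Cd160 was lower in CD4 T cells without Foxp3 (−1.53, 11 and 54 UMIs) and higher in macrophages (0.60, 60 and 96 UMIs) and CD45-negative cells (2.01, 12 and 9 UMIs). In the last, the estimate for free RNA alone, 26.5 and 9.15 UMIs, was at or above what was seen.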

How the results depend on the processing

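Of 616 values from 11 alternative settings of 61 ratios, 593 lay within the counting interval of their ratio and 21 lay outside it. That interval was wide in sparse gates. Entpd1 in CD4 T cells, at 1.27 and at 0.07 among barcodes with at least 1000 UMIs, thus counts among the 593. The other 2 turned the sign of a ratio past 1.5-fold. These 2 were Pdcd1 in macrophages with free RNA subtracted (−0.13) and Ctla4 in macrophages gated on thinned cells (−0.047). A further 21 values had the opposite sign in 10 ratios that were short of 1.5-fold and whose counting intervals included 0. Of 34 ratios past 1.5-fold, 19 stayed past it in every setting that gave a ratio and 15 did not in at least 1. Subtraction of free RNA gave no ratio for Pdcd1, Ctla4, Lag3 and Cd160 in CD45-negative cells, whose levels became negative in both libraries. Ctla4 and Lag3 in these cells are nevertheless counted among the 19. Pdcd1 in CD8 T cells was −0.21 with the lowest UMI count of WT required of both libraries and −0.47 as a mean over cells. With all barcodes of at least 1000 UMIs, Ctla4 in Foxp3-positive T cells was −0.27, Lag3 in CD4 T cells 1.57, and Cd274 and Pdcd1lg2 in DC 0.69 and 0.29. Lag3 in CD4 T cells was 2.87 when gated on thinned cells and 2.80 without the top cell of each library. The difference in CD8 T cells with 3 or more receptors was −6.78 points without thinning. The cause of these shifts was not tested. Weighting CD8 T cells to the WT cycling mix was chosen after seeing the data.

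With at least 100 UMIs in place of 20, fewer genes were tested, and genes called higher and lower numbered 496 and 515 in place of 1096 and 922 in CD8 T cells, 518 and 295 in place of 1460 and 1304 in CD4 T cells, 192 and 221 in place of 884 and 947 in Foxp3-positive T cells, 472 and 117 in place of 1231 and 458 in NK cells, 724 and 643 in place of 1220 and 998 in macrophages, 293 and 166 in place of 1072 and 773 in DC, and 684 and 775 in place of 1335 and 1225 in CD45-negative cells. No paired analysis was possible because each genotype had 1 library and no test was run. Depth limits the values of CD4 T cells, Foxp3-positive T cells and DC, since WT had 17, 51 and 69 such cells.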

Other observations

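Cells outside the gates held checkpoint transcripts too. T cells in no subset, 142 and 451 in number, had Cd160 at 329 and 273 CPM (log2 ratio −0.27) and Cd274 at 21.7 and 44.0 CPM (1.02, 0.45 to 1.64). Droplets with both CD3 and macrophage transcripts, 331 and 366 in number, had Cd274 at 36.9 and 92.4 CPM (1.32, 1.09 to 1.56) and Ctla4 at 93.5 and 94.3 CPM (0.01).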
